A study of Mus musculus with 6 samples.

Results

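The tumor necrosis factor (TNF) superfamily of ligands and the TNF receptor superfamily were followed by RNA-seq in control and senescent mouse adult fibroblasts (MAFs). Members were the rows of the count table that carry the biotype protein coding and a symbol starting with *Tnfsf* or *Tnfrsf* and a number, together with *Tnf*, *Lta*, *Ltb* and *Ltbr*. The rule reads names only and uses no measured value. It found 36 of the 43346 genes in the table, of which 15 encode ligands and 21 encode receptors. Fas, Cd40, Ngfr and other relatives whose symbols do not match are given separately, after the members.

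MAFs were grown from ear tissue of adult female C57BL6/J mice and used between passages 3 and 8 in 3% oxygen. The senescent group (3 libraries) received X-rays at 20 Gy and was kept for 21 days, whereas the control group (3 libraries) was sham irradiated. All 6 samples were given 100 nM dexamethasone, a synthetic glucocorticoid that sets the phase of the circadian clock, for 2 hours, and were collected 12 hours later, so both groups carry the glucocorticoid exposure. The labels do not say whether the replicates came from separate animals or cultures, so the p-values measure the spread between these libraries, which may be technical.

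Ligands of the TNF superfamily are mostly trimeric membrane proteins, some of which are shed as soluble cytokines. Their receptors fall into classes by what they carry inside the cell. Death domain receptors recruit adaptors that can lead to caspase activation, TRAF-binding receptors recruit TRAF adaptors that activate NF-κB and JNK, and decoy receptors bind ligand without transmitting a signal. In connective tissue the family is best known for inflammatory signaling by TNF, for control of osteoclast formation by RANKL and its soluble inhibitor osteoprotegerin (OPG), and for tissue repair responses through Fn14.

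Libraries held between 50288454 and 61747564 gene counts in the control group and between 53792998 and 82229553 in the senescent group, and TMM factors lay between 0.968 and 1.03. *Mki67*, a proliferation marker, was 589 ± 17.3 CPM (counts scaled to a common library size with TMM factors; SD, n = 3) in control and 9.60 ± 1.48 in senescent cells, whereas *Cdkn1a*, which encodes p21, was 123 ± 2.01 and 619 ± 16.3. Senescent replicate 3 stood apart from the other senescent libraries. Its median squared count difference was 13.9 to 19.2 times the sampling expectation, against 2.14 between the other pair of senescent libraries and 1.79 to 4.25 among the control libraries. Fibroblast markers were abundant in both groups, with a summed level of 59832 to 61464 CPM in control and 45705 to 50811 CPM in senescent libraries. *Fn1*, which was not called, made up most of that sum (45643 and 43835 CPM), while 4 of the 9 markers fell and 3 rose. Among them *Col1a1* fell by 2.54, *Col3a1* by 2.00 and *Col1a2* by 1.87 on the log2 scale, and *Dcn* rose from 56.6 to 642 CPM. Of the 7 cartilage cell markers, 6 fell. The remaining marker, *Matn1*, was below the filter, with 1, 1 and 0 counts in control and 8, 10 and 10 in senescent libraries. The 7 markers summed to 6644 to 7139 CPM in control and 571 to 642 CPM in senescent libraries. Lymphocyte marker lists were near 0. The 8 T and NK cell markers summed to at most 0.0200 CPM in control, where 7 were at 0, and to between 0.0592 and 0.240 CPM in senescent libraries. The 5 B cell markers summed to 0.0601 to 0.0669 and 0.391 to 0.613 CPM, with 4 at 0 in control, and the 7 macrophage markers to 2.47 to 2.66 and 6.52 to 7.57 CPM, where the 5 that were tested all rose. The 5 endothelial markers summed to 2.53 to 2.93 and 8.02 to 8.44 CPM and all 5 rose, and the 6 keratinocyte markers summed to 15.8 to 16.5 and 21.2 to 22.2 CPM. In that list *Ivl* rose, from 0 counts in control to 14.0 CPM, *Trp63* fell from 13.1 to 4.17 CPM, and the other 4 were not called or not tested. The part of these other cell types in the results below was not tested. In bulk RNA, fewer cells of a type and less RNA per cell cannot be told apart.

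Of the 36 members, 27 passed the filter on low counts and were compared between groups with the quasi-likelihood test of edgeR (p-values adjusted by Benjamini-Hochberg across the 17589 tested genes). At an adjusted p under 0.05, 24 were called, 15 higher and 9 lower in senescent cells. Calls were common throughout these data: 70.3% of all tested genes were called, 36.2% higher and 34.1% lower. With the threshold of the study's methods (fold change over 2, p under 0.05 before adjustment), 17 members were called, 13 higher and 4 lower, against 30.1% of all tested genes, 17.8% higher and 12.3% lower. The values of the groups did not overlap for 25 of the 27 tested members, against 75.4% of all tested genes. The median log2 fold change was 0.62 over the tested members and 0.01 over all tested genes. These medians describe the genes that passed the filter, and 7 members passed it through 1 group only (*Tnfsf18*, *Tnfsf15*, *Tnfsf8*, *Tnfrsf8*, *Tnfrsf18* and *Tnfrsf19* through the senescent and *Tnfsf10* through the control libraries). Of the 20 members past the limit of 0.173 CPM in both groups, 17 were called, 9 higher and 8 lower, where 69.2% of the 15130 genes past it in both groups were called. The median log2 fold change was 0.29 over these 20 members and -0.06 over these 15130 genes. Ligands and receptors differed in how many could be tested: 9 of 15 ligands, of which 4 rose and 3 fell, and 18 of 21 receptors, of which 11 rose and 6 fell.

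**Figure D1:**
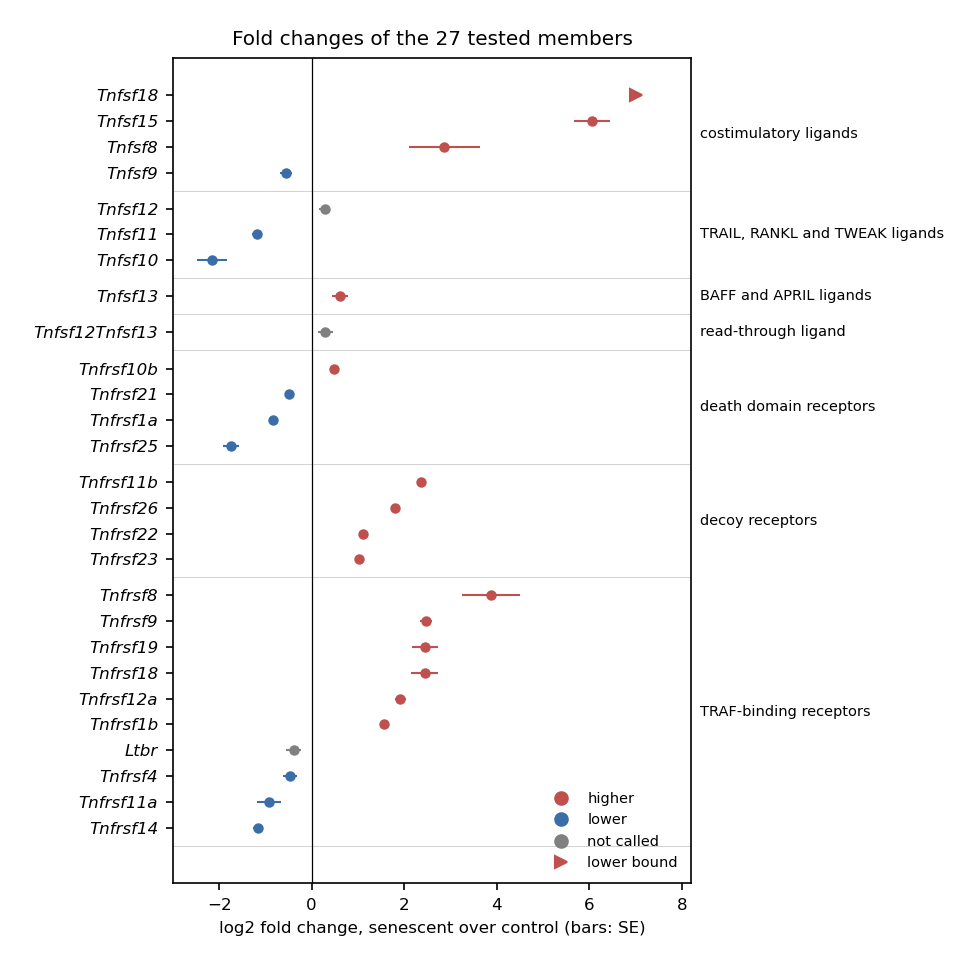
Log2 fold change of senescent over control cells (horizontal axis) for the 27 members tested, grouped by class. Points are fitted values with SE bars, colors give the call at an adjusted p under 0.05, and the arrowhead for *Tnfsf18* is the lower bound against 3 counts per control library. The 4 genes grouped as decoy receptors all lie to the right of 0, and 3 of the 4 death domain receptors to the left. Of all tested genes, 36.2% were called higher and 34.1% lower.

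Promoter sequences are shown for the ligand and the receptor with the largest change among the members described in full, and for neighboring members that rose together, since these are the genes whose shared position or letters a reader may want to compare. RefSeq windows of 300 bases around transcript starts (build GRCm38.p6) were matched for 28 of the 36 members, with 32 windows in all. *Tnfsf9*, *Tnfsf12*, *Tnfsf12Tnfsf13*, *Tnfsf4*, *Tnfrsf10b*, *Tnfrsf11b*, *Tnfrsf22* and *Tnfrsf26* were not matched. Each is written 5′ to 3′ on the strand of its gene in lower case, with matches in capitals to any of 4 motifs searched on both strands: the AP-1 site TGACTCA, the E-box CACGTG, the CRE TGACGTCA and the NF-κB consensus.
Tnfsf18, chr1:161494407-161494706, strand +: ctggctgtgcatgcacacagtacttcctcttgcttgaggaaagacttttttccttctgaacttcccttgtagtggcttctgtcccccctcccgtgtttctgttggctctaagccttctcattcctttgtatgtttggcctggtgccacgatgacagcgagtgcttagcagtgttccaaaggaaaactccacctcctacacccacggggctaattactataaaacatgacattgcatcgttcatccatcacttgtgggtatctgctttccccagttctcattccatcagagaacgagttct
Tnfsf15, chr4:63745010-63745309, strand minus: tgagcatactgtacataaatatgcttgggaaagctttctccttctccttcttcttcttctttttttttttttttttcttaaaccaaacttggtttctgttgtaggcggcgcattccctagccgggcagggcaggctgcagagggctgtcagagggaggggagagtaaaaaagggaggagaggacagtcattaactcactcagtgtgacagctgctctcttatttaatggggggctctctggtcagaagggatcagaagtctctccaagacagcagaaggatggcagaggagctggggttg
Tnfsf8, chr4:63861235-63861534, strand minus: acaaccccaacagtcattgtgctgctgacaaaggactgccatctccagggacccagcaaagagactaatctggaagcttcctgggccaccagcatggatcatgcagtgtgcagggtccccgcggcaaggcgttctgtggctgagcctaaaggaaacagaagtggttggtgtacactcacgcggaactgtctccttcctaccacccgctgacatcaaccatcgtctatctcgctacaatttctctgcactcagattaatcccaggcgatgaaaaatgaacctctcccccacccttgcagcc
Tnfrsf1b, chr4:145246821-145247120, strand minus: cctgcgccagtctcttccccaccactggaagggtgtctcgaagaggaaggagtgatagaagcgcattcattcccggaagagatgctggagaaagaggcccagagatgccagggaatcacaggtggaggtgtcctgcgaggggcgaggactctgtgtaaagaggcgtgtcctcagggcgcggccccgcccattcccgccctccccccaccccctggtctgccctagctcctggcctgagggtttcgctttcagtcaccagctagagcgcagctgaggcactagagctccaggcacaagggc
Tnfrsf8, chr4:145315115-145315414, strand minus: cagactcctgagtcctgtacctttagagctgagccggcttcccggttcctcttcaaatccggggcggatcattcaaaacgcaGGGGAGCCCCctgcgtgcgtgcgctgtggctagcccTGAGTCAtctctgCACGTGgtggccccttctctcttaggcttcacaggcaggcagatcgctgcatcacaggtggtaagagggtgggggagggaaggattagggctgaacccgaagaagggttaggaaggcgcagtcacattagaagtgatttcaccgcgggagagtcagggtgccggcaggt
Tnfrsf9, chr4:150927749-150928048, strand +: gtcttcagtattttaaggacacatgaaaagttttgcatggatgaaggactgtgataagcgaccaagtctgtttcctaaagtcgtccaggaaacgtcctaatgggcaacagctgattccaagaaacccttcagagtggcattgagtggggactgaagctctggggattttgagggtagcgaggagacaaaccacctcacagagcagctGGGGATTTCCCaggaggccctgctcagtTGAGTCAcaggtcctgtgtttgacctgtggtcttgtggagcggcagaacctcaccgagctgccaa
Tnfrsf23, chr7:143685826-143686125, strand minus: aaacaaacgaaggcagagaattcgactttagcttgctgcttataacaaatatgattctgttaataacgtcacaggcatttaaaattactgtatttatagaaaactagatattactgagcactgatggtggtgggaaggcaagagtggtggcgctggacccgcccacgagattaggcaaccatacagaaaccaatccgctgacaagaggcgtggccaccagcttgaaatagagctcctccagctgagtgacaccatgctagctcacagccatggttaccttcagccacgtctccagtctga

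The windows of *Tnfrsf8* and *Tnfrsf9* hold both an AP-1 and an NF-κB match. In *Tnfrsf8* the NF-κB match starts 168 bases, the AP-1 match 132 bases and an E-box 119 bases before the transcript start. In *Tnfrsf9*, which has a second window without a match, the AP-1 match starts 15 bases before the start, and a pair of overlapping NF-κB matches starts at 43 and 42 bases before it. The windows of *Tnfsf18*, *Tnfsf15*, *Tnfsf8*, *Tnfrsf1b* and *Tnfrsf23* hold none of the 4 motifs. Over the 32 windows of the 28 members, AP-1 letters were found in 6 (of *Tnfrsf8*, *Tnfrsf9*, *Tnfsf13*, *Tnfsf13b* and *Tnfsf14*), where 5.202% of all 32851 windows hold them. The windows of *Tnfsf13b* overlap and hold the same AP-1 site, so these 6 windows hold fewer than 6 distinct sites. E-box letters were found in 5 of the 32 windows (of *Ltbr*, *Tnfrsf4*, *Tnfrsf8*, *Tnfrsf19* and *Tnfrsf21*, against 7.15% of all windows), NF-κB letters in 3 (of *Ltb*, *Tnfrsf8* and *Tnfrsf9*, against 4.505%), and the CRE in 0 (against 1.79%). A match describes letters only, and binding to these windows was not analysed here.

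Transcripts of the founding cytokines were nearly undetected. *Tnf*, the inflammatory cytokine the family is named for, had 0 counts in all 3 control libraries. In senescent libraries it had 1, 1 and 3 counts, at or under the 3 counts that a library with no count allows, so no fold was computed. *Lta*, which encodes lymphotoxin alpha, lies 1.2 kb from *Tnf* on chromosome 17 and had 0, 0 and 0 counts in control and 16, 25 and 12 counts in senescent libraries, or 0.249 ± 0.0932 CPM. That is at least 4.35-fold higher, computed against 3 counts per control library, and *Lta* was below the filter and was not tested. *Ltb*, the partner of *Lta* in the membrane lymphotoxin, had 4, 1 and 4 counts in control and 4, 1 and 0 in senescent libraries, which overlap. *Tnfsf14*, which encodes the lymphotoxin-related ligand LIGHT, had 0, 1 and 0 counts in control and 2 in each senescent library.

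The largest increase of the family was that of *Tnfsf18*, which encodes GITRL, the ligand of the costimulatory receptor GITR (chr1:161494655-161505290, mm10). No count was seen in any control library, which allows up to 0.0613 CPM per library, and its level was 7.25, 6.89 and 8.04 CPM in the senescent libraries, from 402, 546 and 679 counts. All senescent libraries were therefore far above the control libraries, and the level was at least 129-fold higher, against 3 counts per control library (edgeR's quasi-likelihood test, adjusted p = 1.17e-06). Its neighbor *Tnfsf4*, which encodes OX40L and lies 76.2 kb away with no gene between, had 0 counts in control and 1 count in each senescent library, so the increase was not seen across the neighboring pair at this depth. *Tnfrsf18*, which encodes GITR itself, was 0.241, 0.217 and 0.102 CPM in control and 1.15, 1.12 and 0.841 CPM in senescent libraries. It rose by 2.44 ± 0.30 on the log2 scale (SE, adjusted p = 0.000163) with no overlap between groups, although the deposited counts of 12, 13 and 5 in control are low. The antisense gene *Gm16008* overlaps 27.2% of the exon bases of *Tnfrsf18* and fell from 551, 611 and 548 counts to 304, 414 and 400 counts. Whether the counting used strand is not given in the sources used here, so reads in that stretch may belong to either gene.

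A second ligand with a large increase was *Tnfsf15*, which encodes TL1A, a costimulatory cytokine made by endothelial and myeloid cells. It was 0.0601, 0.0167 and 0 CPM in control libraries (3, 1 and 0 counts) and 1.84, 1.70 and 1.86 CPM in senescent libraries (102, 135 and 157 counts). The fitted increase was 6.05 ± 0.39 on the log2 scale (SE, adjusted p = 4.74e-06), and the ratio of summed counts was 71.3 with an exact 95% interval of 27.6 to 263, which covers counting error only. Endothelial and macrophage markers rose in the same comparison, as given above, and their part in this value was not tested. Its receptor moved the other way. *Tnfrsf25*, which encodes the death domain receptor DR3, was 9.32, 10.3 and 10.1 CPM in control and 3.37, 3.46 and 2.12 CPM in senescent libraries, lowest in senescent replicate 3. It fell by 1.74 ± 0.18 on the log2 scale (SE, adjusted p = 6.44e-05).

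*Tnfsf8*, which encodes CD30L and lies 86.2 kb from *Tnfsf15* on chromosome 4, also rose, from 1, 0 and 5 counts to 14, 14 and 36 counts (log2 fold change 2.87 ± 0.77, SE, adjusted p = 0.0107). Control replicate 3 held most of its control counts, and without that library the log2 fold change was 4.71. Its receptor gene *Tnfrsf8*, which encodes CD30, had 0, 2 and 1 counts in control and 15, 33 and 19 in senescent libraries. The ratio of summed counts was 16.2 (exact 95% interval 5.30 to 80.3), and the adjusted p was 0.000800. Both members of this pair thus stayed under 0.5 CPM in every library. *Tnfrsf8* lies 20.3 kb from *Tnfrsf1b* with no gene between.

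The remaining costimulatory ligand, *Tnfsf9*, which encodes 4-1BBL, went against its receptor. *Tnfsf9* was 7.32 ± 0.126 in control and 5.02 ± 0.886 CPM in senescent cells (log2 fold change -0.55 ± 0.13, SE, adjusted p = 0.00558). The gene *Gm11110* on the opposite strand overlaps 14.9% of the exon bases of *Tnfsf9*. It had 122, 136 and 128 counts in control and 118, 173 and 141 in senescent libraries. As with *Tnfrsf18*, reads in that stretch may belong to either gene. *Tnfrsf9*, which encodes the receptor 4-1BB, was 1.06, 0.920 and 1.08 CPM in control and 5.88, 4.96 and 6.05 CPM in senescent libraries, with every senescent library well above every control library. It rose by 2.46 ± 0.13 on the log2 scale (SE, adjusted p = 1.82e-06). *Tnfrsf4*, the receptor for OX40L, was 1.41 ± 0.0804 and 1.02 ± 0.112 CPM and its decrease was small (log2 fold change -0.47 ± 0.15, adjusted p = 0.0202). Its call depended on single libraries, with an adjusted p of 0.0614 without control replicate 1, 0.0562 without senescent replicate 1 and 0.0681 without senescent replicate 3. It lies 9.6 kb from *Tnfrsf18*, which rose. *Tnfrsf14*, which encodes HVEM, the herpesvirus entry mediator that binds LIGHT, was 6.13, 7.09 and 5.90 CPM in control and 2.90, 2.89 and 2.76 CPM in senescent libraries. It fell by 1.16 ± 0.11 on the log2 scale (adjusted p = 3.00e-05), without overlap.

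**Figure D2:**
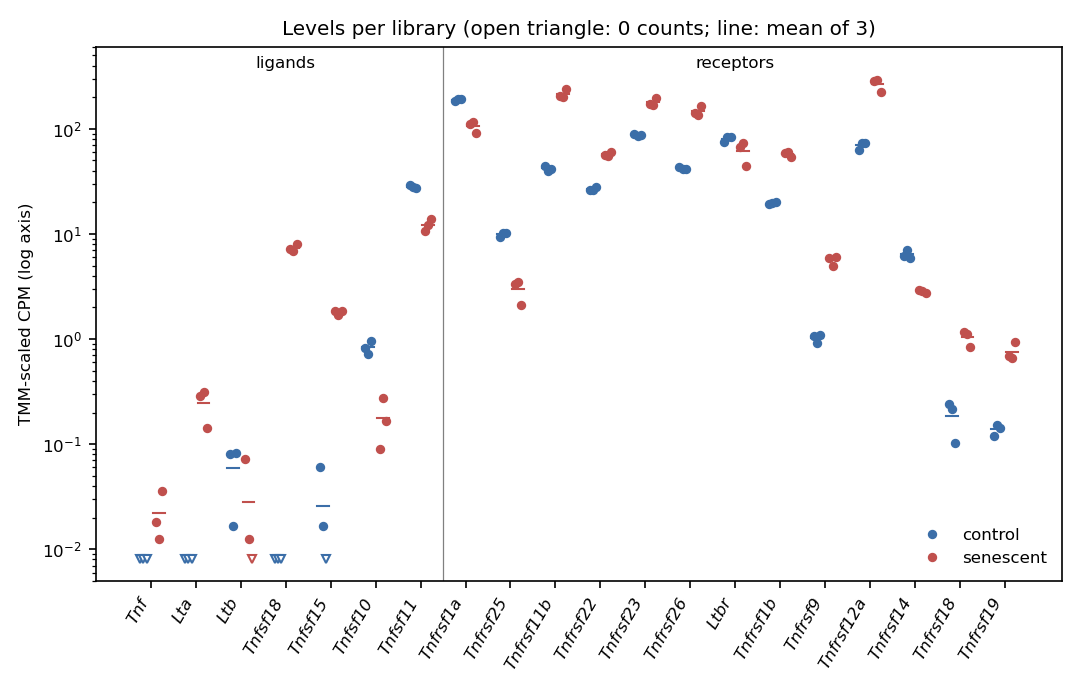
TMM-scaled CPM (vertical log axis) of the 20 members described in full, in each of the 3 control (blue) and 3 senescent (red) libraries. Open triangles mark libraries with 0 counts and lines mark means. *Tnfsf18* and *Lta* have 0 counts in all control libraries, and *Tnfrsf12a* and *Tnfrsf11b* reach the highest senescent levels, up to 289 and 240 CPM.

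The receptors for TNF changed in opposite directions. *Tnfrsf1a*, which encodes TNFR1, the death domain receptor found on most cells, was 182, 192 and 192 CPM in control and 111, 115 and 91.8 CPM in senescent libraries. It fell by 0.83 ± 0.09 on the log2 scale (SE, adjusted p = 8.34e-05). *Tnfrsf1b*, which encodes TNFR2, a TRAF-binding receptor without a death domain, was 19.2, 19.6 and 20.2 CPM in control and 58.9, 60.6 and 54.3 CPM in senescent libraries, and rose by 1.56 ± 0.07 (adjusted p = 4.64e-07). Neither gene showed overlap between the groups. *Ltbr*, the lymphotoxin beta receptor, lies 35.5 kb from *Tnfrsf1a* and was 74.7, 83.2 and 83.9 CPM in control and 67.8, 72.7 and 44.3 CPM in senescent libraries. Senescent replicate 3 was far below the other libraries, and the difference did not pass the test (log2 fold change -0.39 ± 0.17, adjusted p = 0.0705). Without that library the difference was smaller and passed (log2 fold change -0.19, adjusted p = 0.00387), and without senescent replicate 2 it was -0.52 with an adjusted p of 0.0306.

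Besides *Tnfrsf1a* and *Tnfrsf25*, given above, the class of death domain receptors holds *Tnfrsf10b* and *Tnfrsf21*. Only members are counted in it, so relatives outside the rule such as *Fas*, a death receptor, are not. *Tnfrsf10b*, which encodes the death receptor for TRAIL, was 65.4 ± 1.14 in control and 91.4 ± 4.51 CPM in senescent cells (log2 fold change 0.48 ± 0.06, SE, adjusted p = 0.000147) and was the only one of these 4 to rise. Of all tested genes, 36.2% were called higher and 34.1% lower. *Tnfrsf21*, which encodes DR6, was 18.8 ± 1.10 and 13.3 ± 0.595 CPM (log2 fold change -0.50 ± 0.08, adjusted p = 0.000669). *Tnfsf10*, which encodes the apoptosis-inducing ligand TRAIL itself, was 0.822, 0.719 and 0.960 CPM in control and 0.0902, 0.277 and 0.166 CPM in senescent libraries, from 5, 22 and 14 senescent counts. It fell by 2.15 ± 0.33 on the log2 scale (adjusted p = 0.000601), the largest decrease among the tested members.

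All 4 genes grouped here as decoy receptors rose, where 36.2% of all tested genes were called higher and 34.1% lower. *Tnfrsf26* is counted with them, although it has no known ligand. *Tnfrsf22* and *Tnfrsf23*, which encode the mouse decoy receptors for TRAIL, and *Tnfrsf26*, a related receptor, lie side by side on chromosome 7. The gaps are 7.0 and 16.1 kb, and no counted gene lies wholly within them. The antisense gene *E230032D23Rik*, which was not counted, overlaps 3.3% of the exon bases of *Tnfrsf26* and 4.1% of those of *Tnfrsf23*. *Tnfrsf26* was 43.3, 41.3 and 41.7 CPM in control and 142, 136 and 163 CPM in senescent libraries (log2 fold change 1.80 ± 0.08, SE, adjusted p = 5.67e-07). *Tnfrsf22* was 26.2, 26.1 and 27.9 CPM in control and 56.5, 55.0 and 60.8 CPM in senescent libraries (1.10 ± 0.07, adjusted p = 2.97e-06). *Tnfrsf23* was 89.9, 85.7 and 87.4 CPM in control and 171, 169 and 195 CPM in senescent libraries (1.03 ± 0.07, adjusted p = 6.46e-06). For each of the 3 genes every senescent library exceeded every control library, and senescent replicate 3 was highest. *Tnfrsf22* and *Tnfrsf23* are near copies in places: 15.77% of the 100-base windows of *Tnfrsf22* transcripts also occur in other genes, *Tnfrsf23* among them, and 9.31% of those of *Tnfrsf23* occur in *Tnfrsf22*, so their split of reads is uncertain to that extent. *Tnfrsf26* has no such window.

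The fourth decoy, OPG, and its ligand RANKL moved in opposite directions. *Tnfrsf11b*, which encodes OPG (chr15:54250619-54278484, mm10), was 44.2, 40.1 and 41.7 CPM in control and 203, 200 and 240 CPM in senescent libraries, and rose by 2.36 ± 0.09 on the log2 scale (SE, adjusted p = 2.39e-07). *Tnfsf11*, which encodes RANKL (chr14:78277445-78308043, mm10), was 29.1, 27.7 and 27.3 CPM in control and 10.7, 12.2 and 13.8 CPM in senescent libraries, and fell by 1.19 ± 0.10 (adjusted p = 2.15e-05). Neither gene overlapped between groups. Within each library, which needs no scaling between libraries, there were 65.9, 69.2 and 65.4 *Tnfsf11* counts per 100 *Tnfrsf11b* counts in control and 5.28, 6.11 and 5.76 in senescent cells. The mean log2 ratio was -0.58 ± 0.04 (SD, n = 3) in control and -4.13 ± 0.11 (SD, n = 3) in senescent cells, a ratio 11.7-fold lower. A two-sided exact permutation test gave p = 0.1, the smallest value that 3 libraries against 3 allow. *Tnfrsf11a*, which encodes RANK, the signaling receptor for RANKL, was scarce, with 0.685 ± 0.126 in control and 0.352 ± 0.0898 CPM in senescent cells (log2 fold change -0.92 ± 0.25, adjusted p = 0.0120). Most cartilage cell markers fell in the same comparison, as given above, and the part of cartilage cells in the RANKL and OPG values was not tested.

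**Figure D3:**
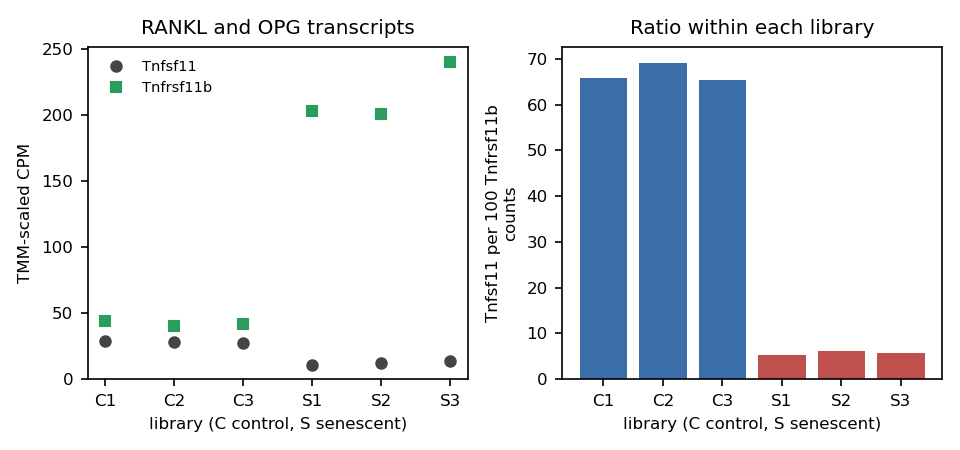
Left, TMM-scaled CPM of *Tnfsf11* (RANKL, circles) and *Tnfrsf11b* (OPG, squares) in control (C1 to C3) and senescent (S1 to S3) libraries. Right, *Tnfsf11* counts per 100 *Tnfrsf11b* counts in the same libraries, which lie between 65.4 and 69.2 in control and between 5.28 and 6.11 in senescent cells.

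Among the TRAF-binding receptors, *Tnfrsf12a* reached the highest level. It encodes Fn14, the receptor for TWEAK, which is induced in injured tissue. It was 63.2, 74.0 and 73.5 CPM in control and 283, 289 and 223 CPM in senescent libraries, with senescent replicate 3 lowest of the senescent libraries and still above every control library. The increase was 1.92 ± 0.11 on the log2 scale (SE, adjusted p = 3.10e-06). Its ligand gene *Tnfsf12*, which encodes TWEAK, was 9.10, 10.8 and 10.8 CPM in control and 12.8, 13.8 and 10.5 CPM in senescent libraries, which overlap through senescent replicate 3 (log2 fold change 0.28 ± 0.12, adjusted p = 0.0759). Without senescent replicate 3 the value was 0.39 with an adjusted p of 0.000484. *Tnfsf12* shares 44.87% of its 100-base windows with the read-through gene *Tnfsf12Tnfsf13*, which was also not called (log2 fold change 0.29 ± 0.16, adjusted p = 0.140; without senescent replicate 3, 0.43 and 0.00336; without control replicate 1, 0.16). *Tnfrsf19*, which encodes TROY, a receptor best known from the nervous system and hair follicles, was 0.120, 0.151 and 0.143 CPM in control and 0.685, 0.656 and 0.936 CPM in senescent libraries, and rose by 2.45 ± 0.27 (adjusted p = 0.000104) from 6, 9 and 7 control counts.

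The B cell survival factors and their receptors were scarce. *Tnfsf13*, which encodes APRIL, was 1.87 ± 0.423 in control and 2.88 ± 0.128 CPM in senescent cells (log2 fold change 0.62 ± 0.17, SE, adjusted p = 0.0114), although 54.22% of its 100-base windows also occur in the read-through gene. *Tnfsf13b*, which encodes BAFF, had 6, 9 and 2 counts in control and 9, 23 and 11 in senescent libraries, and was not tested. In CPM its groups overlapped, with 0.151 in control replicate 2 and 0.130 in senescent replicate 3. The receptor genes *Tnfrsf13b*, *Tnfrsf13c* and *Tnfrsf17* were below the filter. *Tnfrsf13b* (TACI) had 0, 0 and 1 counts in control and 1, 6 and 6 in senescent libraries, *Tnfrsf13c* (BAFF receptor) 2, 2 and 1 and 6, 7 and 12, and *Tnfrsf17* (BCMA) 0 in all 6 libraries. With the ligands *Tnf*, *Lta*, *Ltb*, *Tnfsf4* and *Tnfsf14*, these account for the 9 members that were not tested.

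Levels were set side by side between genes as CPM per kb of the gene length in the deposited table. Summed over the ligands, the level was 30.0 ± 1.08 CPM per kb in control and 28.2 ± 1.33 in senescent cells (SD, n = 3). Summed over the receptors it was 284 ± 9.40 and 590 ± 30.9 CPM per kb, with no overlap, so receptors stood at 9.47 ± 0.0784 times the ligands in control and at 20.9 ± 0.142 times in senescent cells. Within the receptor sum, death domain receptors held 36.3% ± 0.455 in control and 12.7% ± 0.0923 in senescent cells, decoy receptors 21.7% ± 1.29 and 32.8% ± 4.84, and TRAF-binding receptors 42.1% ± 1.73 and 54.6% ± 4.87. *Tnfrsf26*, which has no known ligand, is counted in the decoy share, and relatives outside the rule such as *Fas* are in none of these shares. The decoy share was 38.3% in senescent replicate 3 and 30.5% and 29.5% in the other senescent libraries. *Tnfrsf12a* alone held 25.7% ± 1.42 of the receptor sum in control and 46.5% ± 4.02 in senescent cells, and *Tnfsf11* held 41.9% ± 2.90 and 19.5% ± 3.29 of the ligand sum.

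In control cells the order of receptor levels per kb was *Tnfrsf12a* (72.9 CPM per kb) and *Tnfrsf1a* (72.8), which did not differ beyond their spread, then *Ltbr* (34.2), *Tnfrsf23* (26.1) and *Tnfrsf10b* (20.6). In senescent cells it was *Tnfrsf12a* (275 CPM per kb), *Tnfrsf11b* (76.2), *Tnfrsf23* (53.2), *Tnfrsf26* (49.4) and *Tnfrsf1a* (40.9), where *Tnfrsf23* and *Tnfrsf26* lie within their spread. The deposited length of *Tnfrsf12a* is 963 bases, whereas the union of its exons in GENCODE M21 is 1932 bases. For *Tnfrsf10b* these lengths are 3171 and 5451 bases. With M21 lengths, *Tnfrsf12a* was 36.3 CPM per kb in control, below *Tnfrsf1a*, and 137 in senescent cells, where it still ranked first, and its share of the receptor sum was 15.6% and 32.0%. *Tnfrsf10b* was then 12.0 CPM per kb in control, below *Tnfrsf11b* (14.9) and *Tnfrsf26* (13.1). In senescent cells *Tnfrsf26* (45.7) and *Tnfrsf23* (45.0) changed places, still within their spread. With those lengths the receptor sum was 232 and 427 CPM per kb, the death domain share 40.4% and 14.6%, the decoy share 24.3% and 42.4%, and the TRAF-binding share 35.3% and 43.0%. The ligand sum was then 29.6 and 27.8 CPM per kb, and receptors stood at 7.84 times the ligands in control and 15.3 times in senescent cells. The SDs of the ratios with deposited lengths therefore do not cover the choice of gene length.

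**Figure D4:**
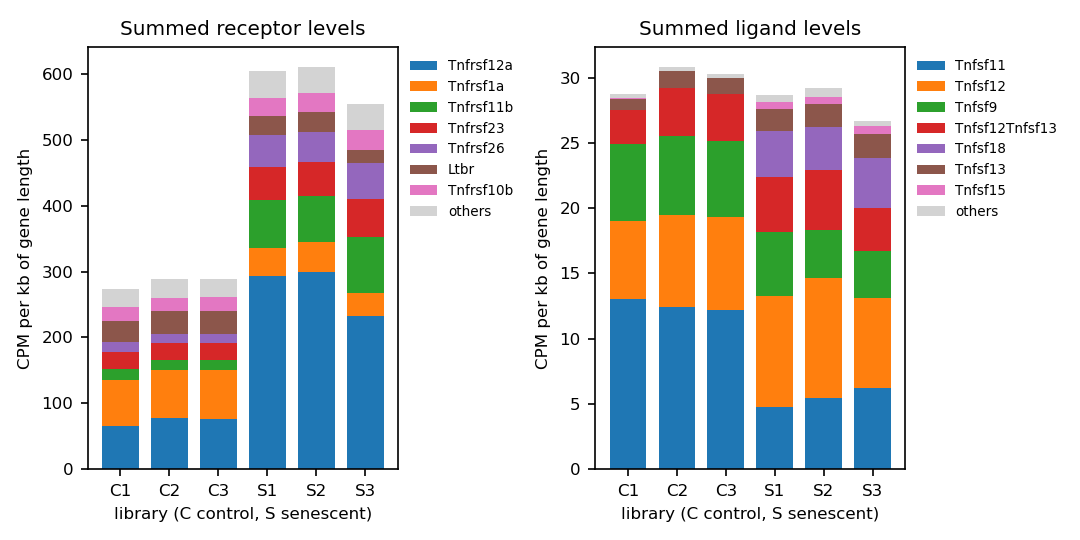
Summed receptor levels (left) and ligand levels (right) in CPM per kb of the deposited gene length, stacked by gene in each control (C1 to C3) and senescent (S1 to S3) library. The receptor sum lies between 273 and 289 in control and between 554 and 611 in senescent libraries, while the ligand sum lies between 26.7 and 30.8 in all 6.

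Among ligand and receptor genes that pair, both sides rose for *Tnfsf8* with *Tnfrsf8* and for *Tnfsf18* with *Tnfrsf18*. All of these genes passed the filter through the senescent libraries alone, so they could hardly have been called lower. For *Tnfsf11* with *Tnfrsf11a* both sides fell. The ligand rose and the receptor fell for *Tnfsf15* with *Tnfrsf25*. The ligand fell and the receptor rose for *Tnfsf9* with *Tnfrsf9* and for *Tnfsf11* with *Tnfrsf11b*. The same held for *Tnfsf10* with each of *Tnfrsf10b*, *Tnfrsf22*, *Tnfrsf23* and *Tnfrsf11b*, since OPG also binds TRAIL. The pairs of *Tnfsf10* share the same ligand value. *Tnfsf15* passed the filter through the senescent and *Tnfsf10* through the control libraries alone, which limits the direction in which they could be called.

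Relatives whose symbols the rule does not match were compared in the same way. Of 11 such genes 7 were tested, and 5 rose and 1 fell, where 36.2% of all tested genes were called higher and 34.1% lower. *Ngfr* and *Cd40* passed the filter through the senescent libraries alone, so they could hardly have been called lower. *Ngfr*, which encodes the p75 neurotrophin receptor, had 0, 0 and 1 counts in control and 203, 289 and 272 in senescent libraries (ratio of summed counts 553, exact 95% interval 98.9 to 21866, adjusted p = 4.13e-07). *Cd40*, a costimulatory receptor of antigen-presenting cells, had 0, 0 and 1 counts in control and 52, 94 and 78 in senescent libraries (ratio 162, interval 28.8 to 6431, adjusted p = 9.89e-06). These ratios rest on 1 control count each. *Eda2r*, an ectodysplasin receptor known as a p53 target, was 20.3 ± 1.27 in control and 73.7 ± 10.3 CPM in senescent cells (log2 fold change 1.86 ± 0.11, adjusted p = 2.55e-06). *Relt* rose by 1.34 ± 0.17 (adjusted p = 0.000211), from 3.33 ± 0.138 to 8.45 ± 1.84 CPM, and *Fas*, the death receptor for Fas ligand, rose by 0.53 ± 0.09 (adjusted p = 0.00123), from 22.3 ± 1.73 to 32.1 ± 2.93 CPM. *Edar* fell by 1.74 ± 0.22 (adjusted p = 0.000206), from 2.54 ± 0.629 to 0.758 ± 0.109 CPM. *Eda* was not called, and *Fasl*, *Cd27*, *Cd70* and *Cd40lg* were below the filter.

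Genes that act downstream of the receptors changed in both directions. All 36 were tested, 15 rose and 11 fell, a share of 72.2% against the 70.3% of all tested genes, and the median log2 fold change was 0.09. Past the threshold of the study's methods there were 5 of 36, all of them higher, where 30.1% of all tested genes passed it, 17.8% higher and 12.3% lower. *Tnfaip3* encodes A20, an enzyme that edits ubiquitin on receptor complexes and restrains NF-κB, and was 6.23 ± 0.270 in control and 32.3 ± 0.455 CPM in senescent cells (log2 fold change 2.38 ± 0.07, SE, adjusted p = 7.97e-08). *Cflar*, which encodes the caspase-8 inhibitor cFLIP, was 87.7 ± 1.20 and 293 ± 24.8 CPM (1.74 ± 0.07, adjusted p = 4.14e-07). *Traf1*, a TRAF adaptor, was 4.56 ± 0.106 and 11.6 ± 1.10 CPM (1.35 ± 0.10, adjusted p = 9.08e-06). *Tnip3*, a partner of A20, had 0, 0 and 1 counts in control and 30, 38 and 50 in senescent libraries (ratio of summed counts 85.4, exact 95% interval 15.0 to 3401, adjusted p = 3.68e-05). *Tnip3* passed the filter through the senescent libraries alone. The fifth, *Edaradd*, an adaptor of the ectodysplasin receptor named here after its values were seen, rose by 2.01 ± 0.31 (adjusted p = 0.000642).

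**Figure D5:**
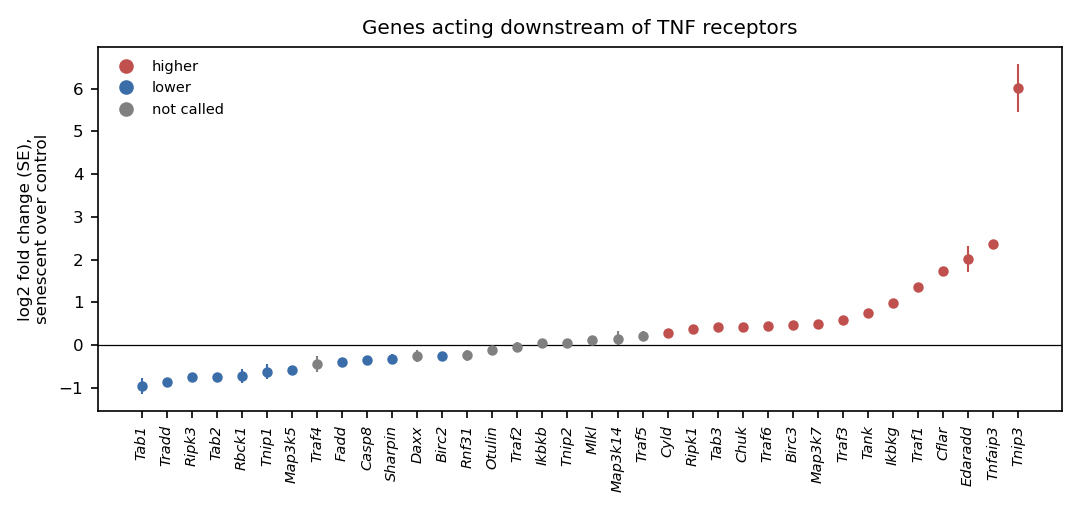
Log2 fold change of senescent over control cells (vertical axis, SE bars) for the 36 genes that act downstream of TNF receptors, in order of the value. Red and blue points are called higher (15) and lower (11) at an adjusted p under 0.05, and gray points are not called (10). The fitted value of *Tnip3* rests on 1 control count.

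Counts over the smaller groups are to be read against the 70.3% of all tested genes that were called. Of the 4 genes for sheddases and their cofactors, which release TNF and its receptors from the membrane, *Rhbdf2* rose and *Adam10* and *Adam17* fell. *Adam17*, the protease that sheds TNF, was 134 ± 1.34 in control and 69.6 ± 3.16 CPM in senescent cells (log2 fold change -0.95 ± 0.06, SE, adjusted p = 2.88e-06). Another list held the 8 genes with symbols starting with *Tnfaip*, for TNF-induced protein. Those starting with *Tnfaip8l* carry the symbol as relatives of *Tnfaip8*, and induction by TNF was not tested. From this list 7 genes were tested, and 3 rose and 3 fell. *Tnfaip3* is one of these, *Tnfaip8l3* had 0 counts in control and 29, 33 and 58 in senescent libraries (at least 9.48-fold higher against 3 counts per control library, adjusted p = 0.000268), *Tnfaip6*, which encodes the hyaluronan-binding protein TSG-6, fell by 1.05 ± 0.13 (adjusted p = 0.000216), and *Tnfaip8l1* fell by 3.33 ± 0.26 (adjusted p = 1.29e-05). Of the 9 genes for C1q/TNF-related proteins, which share the fold of TNF without being its relatives in signaling, 7 were tested, and 3 rose and 4 fell. *C1qtnf6* fell by 2.78 ± 0.10 (adjusted p = 1.82e-07), *C1qtnf3* by 2.37 ± 0.07 (adjusted p = 7.67e-08) and *C1qtnf1* by 1.70 ± 0.08 (adjusted p = 8.19e-07), whereas *C1qtnf5* rose by 1.63 ± 0.14 (adjusted p = 2.13e-05). *C1qtnf2* rose by 1.02 ± 0.34 (adjusted p = 0.0263), a call lost without control replicate 2 (0.0780), control replicate 3 (0.0894) or senescent replicate 2 (0.0807).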

How the data were processed

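The authors mapped paired RNA-seq reads to mm10 and counted them per gene with Subread (names from the submitters' processing notes), and deposited counts that are not normalized. The deposited table also holds a gene length, used here for CPM per kb. From the counts, genes were filtered by edgeR's filterByExpr, scaled by TMM and compared with the robust quasi-likelihood test of edgeR 4.0.16 (R 4.3.3), two-sided, with the group as the only term. Benjamini-Hochberg adjustment ran over the 17589 genes tested. Levels are TMM-scaled CPM. Where a group had 0 counts, folds are lower bounds against 3 counts per library. In the ratio of *Tnfsf11* to *Tnfrsf11b*, 0.5 was added to each count. On counts simulated for this comparison, 178 of 193 changed genes tested, with a true absolute log2 fold change of 1, were recovered. There were 7 false calls among 17234 genes. The simulation gave all genes the same dispersion and held no library that stood apart from its group. In the data, 70.3% of tested genes were called and senescent replicate 3 stood apart, so the simulated rates need not hold there.

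Values are given per library for members with an adjusted p under 0.05, an absolute log2 fold change over 1 and a mean of at least 0.5 CPM in 1 group, and for *Tnf*, *Lta*, *Ltb*, *Ltbr*, *Tnfrsf1a* and *Tnfrsf1b*. Their ligand or receptor partners have group means, and other lists give called genes with an absolute log2 fold change over 1, at most 4 in each direction. *Fas*, *Edaradd*, *Rhbdf2*, *Adam10*, *Adam17*, *Gm16008*, *Gm11110*, *Fn1*, *Col1a1*, *Col1a2*, *Col3a1*, *Dcn*, *Ivl*, *Trp63* and *Matn1* were named after their values were seen, outside this rule. Members and lists were chosen with earlier results of these data known. Alternatives were RLE scaling, library size alone, DESeq2 1.42.0, the exact test of edgeR, filters of 1 count in total and of 10 counts in every library, a replicate block, 0.1 added to each count of the ratio, and each library left out. Exon overlaps and lengths came from GENCODE M21 (GRCm38, the build of mm10).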

Additional observations from a re-analysis of the deposited data

How the results depend on the processing

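The log2 ratio of *Tnfsf11* to *Tnfrsf11b* kept its direction under every alternative. Counts of calls were compared by size and not by direction, and 2 of them moved past the limit set for size. Both moved with at least 10 counts required in every library. There, 10 of 20 tested members passed the threshold of the study's methods (7 higher, 3 lower, against 13 and 4 in the main fit). Of 5 tested ligands, 4 were called at an adjusted p under 0.05 (2 higher, 2 lower, against 4 and 3 in the main fit). Fewer genes were tested there. Leaving out each library in turn gave 23 to 26 called members, 17 to 19 by the study's threshold, 7 to 9 ligands, 16 to 18 receptors, 23 to 30 signaling genes, 6 other superfamily genes, 2 to 3 sheddase genes, 6 to 7 *Tnfaip* genes, 6 to 7 C1q/TNF-related genes, and a log2 ratio of *Tnfsf11* to *Tnfrsf11b* from -3.60 to -3.49. Deviations of same-numbered libraries from their group had correlations of -0.374, 0.293 and -0.263, and those of differently numbered libraries ran from -0.436 to 0.501. With 3 libraries per group and senescent replicate 3 apart from the others, these values cannot decide whether the numbers pair the samples. With a replicate block, 24 members were called (17 by the study's threshold), as were 7 ligands, 17 receptors and 26 signaling genes, and the ratio was -3.55. Of 343 alternative fold changes of the 27 tested members, 330 kept their direction and side of the threshold, 9 passed it newly (for *Ltbr*, *Tnfsf12* and *Tnfsf12Tnfsf13*) and 4, all for *Tnfrsf4*, no longer passed. The latter include DESeq2, which gave *Tnfrsf4* an adjusted p of 0.0554 and *Ltbr* one of 0.0454, and the cause was not tested. Members with under about 10 counts per library are limited by depth.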
